A study of Mus musculus with 31 samples.

Results

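The 2 subsets of conventional dendritic cells sorted from infarcted mouse hearts were compared with each other: cDC1 in 4 libraries (MI cDC1, replicates 1 to 4) and cDC2 in 3 libraries (MI cDC2, replicates 1 to 3), chosen by the condition and cell type in their titles. These 7 libraries belong to a series of 31 RNA-seq libraries in 8 groups. The mice were Balb/c, 8 to 12 weeks old, and infarction (MI) had been induced by tying off the left anterior descending coronary artery for good. Steady-state (SS) cDC1 and SS cDC2, with 4 libraries each, are given beside the MI groups as the setting without infarction, and the CD11c+ monocyte-derived cells (moDC) and CD11c- macrophages of the series only to place marker levels. The sources used here do not give the time after ligation, the sex of the mice, the antibodies of the sort or whether a library holds cells of 1 heart or of several. The p-values therefore measure the spread between these libraries. The series asks whether infarction activates cardiac dendritic cells that then prime autoreactive T cells. The comparison here gives transcript levels of both subsets in infarcted hearts and does not measure their functions.

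Conventional dendritic cells arise from bone marrow precursors that respond to FLT3 ligand, and they carry antigen from tissue to the draining lymph node. The cDC1 lineage is built by the transcription factors IRF8, BATF3 and ID2 and is known for taking up dead cells and for cross-presentation, the loading of outside antigen on MHC class I for CD8+ T cells. The cDC2 lineage depends on IRF4, ZEB2 and NOTCH2 signalling, is known for presentation on MHC class II to CD4+ T cells, and shares surface markers such as SIRPα and CD11b with monocyte-derived cells.

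Promoter windows of marker genes from each side, and of the NF-kB inhibitor gene Nfkbia, are shown because the comparison turns on these genes. Each window runs from 250 bases before to 50 bases after the transcription start in RefSeq (GRCm38.p6) and is written 5′ to 3′ on the strand of the gene. Capitals mark matches on either strand to the motifs GGAAGT (ETS factors such as PU.1), GAAANNGAA (core of the interferon-stimulated response element), GGAANNGAA (core of the composite element of ETS and IRF factors), TGANTCA (AP-1) and GGGANNTTC (core of the NF-kB motif). Matches to different motifs, and to 1 motif on both strands, can overlap. Xcr1 and Clec9a are cDC1 markers, and Cd209a and Mgl2 are cDC2 markers.
Xcr1, chr9:123861980-123862279, minus strand: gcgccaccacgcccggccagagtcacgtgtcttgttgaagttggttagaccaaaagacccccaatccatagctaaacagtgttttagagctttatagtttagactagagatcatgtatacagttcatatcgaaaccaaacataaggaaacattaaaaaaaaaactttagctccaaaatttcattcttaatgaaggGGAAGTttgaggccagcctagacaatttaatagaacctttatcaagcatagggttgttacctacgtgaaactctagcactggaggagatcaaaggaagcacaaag
Clec9a, chr6:129408612-129408911, plus strand: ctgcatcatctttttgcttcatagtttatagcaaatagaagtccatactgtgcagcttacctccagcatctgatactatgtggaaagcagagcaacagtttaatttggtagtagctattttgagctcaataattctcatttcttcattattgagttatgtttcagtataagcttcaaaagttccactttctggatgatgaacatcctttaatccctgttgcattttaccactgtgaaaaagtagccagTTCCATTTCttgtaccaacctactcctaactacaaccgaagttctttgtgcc
Cd209a, chr8:3748935-3749234, minus strand: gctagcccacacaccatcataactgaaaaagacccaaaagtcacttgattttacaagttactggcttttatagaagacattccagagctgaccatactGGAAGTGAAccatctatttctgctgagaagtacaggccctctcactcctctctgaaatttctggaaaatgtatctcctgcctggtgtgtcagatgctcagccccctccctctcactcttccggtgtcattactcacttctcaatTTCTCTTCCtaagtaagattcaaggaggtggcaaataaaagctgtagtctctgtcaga
Mgl2, chr11:70130107-70130406, plus strand: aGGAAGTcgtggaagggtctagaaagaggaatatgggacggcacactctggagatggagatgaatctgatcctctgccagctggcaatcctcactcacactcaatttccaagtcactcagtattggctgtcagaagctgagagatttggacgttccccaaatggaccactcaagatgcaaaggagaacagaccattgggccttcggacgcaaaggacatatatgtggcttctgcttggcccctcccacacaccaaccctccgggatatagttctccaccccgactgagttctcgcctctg
Nfkbia, chr12:55492598-55492897, minus strand: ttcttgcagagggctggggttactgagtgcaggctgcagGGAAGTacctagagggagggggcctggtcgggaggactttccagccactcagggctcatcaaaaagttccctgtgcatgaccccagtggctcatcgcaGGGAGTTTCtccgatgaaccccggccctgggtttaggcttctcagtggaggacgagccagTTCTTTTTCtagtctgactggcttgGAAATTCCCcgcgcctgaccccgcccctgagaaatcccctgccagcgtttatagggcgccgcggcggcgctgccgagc
The Xcr1 and Mgl2 windows held 1 match to the ETS motif each, and the Clec9a window 1 match to the response element. The Cd209a window held 1 match to the ETS motif and 2 to the composite element. The Nfkbia window held 2 matches to the NF-kB motif, 1 to the ETS motif and 1 to the response element. Of the 13039 genes tested, 9947 had a window. The ETS motif was found in 27.0% of the 504 genes with a window that were at least 2-fold higher in MI cDC1, in 30.9% of the 1087 that were at least 2-fold lower and in 32.6% of all 9947. The AP-1 motif was found in 6.75% of the higher and 10.3% of the lower genes, against 6.29% of all. The composite element was found in 8.93% of the higher and 10.2% of the lower genes, against 8.94% of all. The response element was found in 11.3% and 12.5% of the same sets, against 9.05% of all, and the NF-kB motif in 5.36% and 5.89%, against 4.5% of all. These matches are descriptions of letters and were not tested as binding sites. In the GENCODE M21 annotation of GRCm38, Xcr1 spans chr9:123852315-123862029, Clec9a chr6:129408862-129424763, Cd209a chr8:3743397-3748984, Irf8 chr8:120736358-120756694, Nfkbia chr12:55489410-55492647 and F11r chr1:171437535-171464603.

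The 7 libraries held 9389786 to 10586758 reads assigned to genes, with 8.36% to 10.95% of all counted reads in no annotated feature, and the 8 SS libraries of the same subsets held 9947340 to 16531349 reads. In a principal component analysis of log2 CPM (read counts scaled to a common library size), the first component (67.7% of the variance) put the MI cDC1 libraries at -70.3 to -67.1 and the MI cDC2 libraries at 87.8 to 94.2. On the second component (8.81%), MI cDC1 replicate 1 lay at -62.0 and the other MI cDC1 libraries at 19.5 to 20.97, so this library stands apart. The counts of gene lists below were also taken without replicate 1 of MI cDC1, of MI cDC2 and of both, and those that moved by more than 1.5 times are given. Replicate pairs within each group differed by more than counting noise. Among the SS libraries of both subsets, replicates 1 and 4 had 11.65% to 14.92% of reads in no feature and replicates 2 and 3 had 6.419% to 8.503%.

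Adjusted p-values are from edgeR's quasi-likelihood test over all 13039 tested genes with Benjamini-Hochberg adjustment, levels are CPM after TMM scaling, and errors of means are SD (n = 4 for MI cDC1, SS cDC1 and SS cDC2, n = 3 for MI cDC2). The defining markers matched the labels. Xcr1, the receptor for the chemokine XCL1 that marks cDC1, had 1027, 909, 1004 and 1039 CPM in MI cDC1, against 2.54, 3.77 and 3.27 CPM in MI cDC2 (log2 fold change 8.28 ± 0.50 SE, edgeR adjusted p = 2.27e-13). Clec9a, the receptor with which cDC1 recognise actin of dead cells, had 195, 184, 199.8 and 207 CPM in MI cDC1, against 0, 0.397 and 0.771 CPM in MI cDC2 (edgeR adjusted p = 2.93e-11). No MI cDC2 library came near the MI cDC1 libraries for either gene. Irf8, the factor required for the cDC1 lineage, had 4034, 4077, 4047 and 3449 CPM in MI cDC1, against 229.9, 149 and 175 CPM in MI cDC2 (log2 fold change 4.40 ± 0.17 SE, edgeR adjusted p = 5.71e-20). The smallest difference among the 8 defining cDC1 markers was that of Batf3, with 73.1, 62.6, 52.9 and 51 CPM in MI cDC1, against 19, 23.3 and 20.8 CPM in MI cDC2 (log2 fold change 1.51 ± 0.22 SE, edgeR adjusted p = 1.18e-06). All 8, which also include Cadm1, Tlr3, Naaa and Itgae, were higher in each MI cDC1 library than in any MI cDC2 library; groups that did not overlap, in either direction, were found for 36.6% of all tested genes.

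On the cDC2 side, Cd209a, a C-type lectin of the DC-SIGN family, had 3.19, 4.63, 3.71 and 1.95 CPM in MI cDC1, against 2023, 2392 and 2765 CPM in MI cDC2 (log2 fold change -9.46 ± 0.49 SE, edgeR adjusted p = 1.60e-14). Sirpa, which encodes SIRPα, the receptor for CD47, had 4.52, 0.296, 0.557 and 1.33 CPM in MI cDC1, against 1271, 1157 and 1120.5 CPM in MI cDC2 (edgeR adjusted p = 1.07e-15). Itgam, which encodes CD11b, had 14, 16.7, 9.93 and 10.3 CPM in MI cDC1, against 663, 797 and 788 CPM in MI cDC2 (log2 fold change -5.88 ± 0.21 SE, edgeR adjusted p = 1.30e-20). For each of these cDC2 genes every MI cDC1 library was far below every MI cDC2 library. Klf4, a factor that some cDC2 need, averaged 75.8 ± 13.8 CPM in MI cDC1 and 98.6 ± 9.77 CPM in MI cDC2 and did not pass the test (edgeR adjusted p = 0.259). Both subsets use Flt3, the receptor that drives dendritic cell development, which averaged 475 ± 25.9 CPM in MI cDC1 and 204 ± 11.7 CPM in MI cDC2. Zbtb46, a factor of the conventional lineage, averaged 133 ± 19.5 CPM in MI cDC1 and 47 ± 3.26 CPM in MI cDC2, and Itgax, which encodes CD11c, averaged 191 ± 14.8 CPM in MI cDC1 and 808 ± 38.9 CPM in MI cDC2. Flt3 and Zbtb46 were higher in MI cDC1 (edgeR adjusted p = 8.15e-04 and 3.56e-05) and Itgax was lower (edgeR adjusted p = 2.36e-08). In the macrophages of infarcted hearts, Flt3 averaged 2.39 ± 0.936 CPM and Zbtb46 2.55 ± 0.301 CPM, below both dendritic cell groups. Of 18 genes known from both subsets, 5 were higher and 5 lower in MI cDC1, with 8 that did not pass the test (median log2 fold change 0.23, against -0.01 over all genes); 3 were lower without MI cDC2 replicate 1. Of all tested genes, 10.6% were called higher and 16.2% lower.

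**Figure D1:**
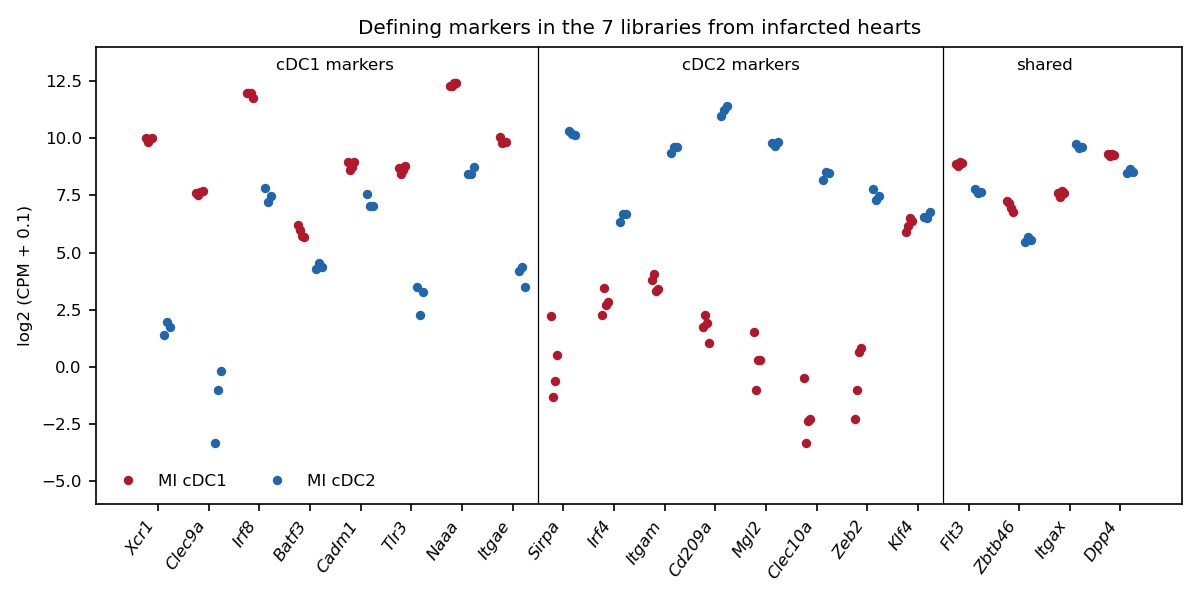
Level of the defining markers, log2 (CPM + 0.1) on the vertical axis, in each of the 4 MI cDC1 (red) and 3 MI cDC2 (blue) libraries; each point is 1 library, in replicate order from left to right. The 8 cDC1 markers lie higher in MI cDC1 and, except for Klf4, the cDC2 markers lie far lower; Irf8 averages 3902 CPM in MI cDC1 and 185 CPM in MI cDC2.

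Among markers of other cells, those of monocytes and macrophages had the highest sum in MI cDC2. The summed level of 13 monocyte and macrophage markers was 70.7 to 102 CPM in the MI cDC1 libraries and 1818 to 3038 CPM in MI cDC2, and 11 of the 13 were lower in MI cDC1, against 16.2% of all tested genes. This list includes Csf1r, the receptor for M-CSF, which many cDC2 also express (32.8 CPM in MI cDC1 and 1254 CPM in MI cDC2), and Apoe. C1qa, a complement subunit made by macrophages, averaged 1.15 ± 0.636 CPM in MI cDC1, 174 ± 76.9 CPM in MI cDC2, 1631 ± 194 CPM in the moDC and 3940.0 ± 525 CPM in the macrophages of infarcted hearts. The C1qa level of MI cDC2 lay between those of MI cDC1 and MI moDC, and the part of macrophage transcripts in the differences below was not tested. In bulk samples, fewer cells of a type and less RNA per cell cannot be told apart.

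Most of the other marker sums were below 100 CPM, and those of B cells and mast cells were led by Fcrla and Kit. Fibroblast markers summed to 1.3 to 2.88 CPM in the MI cDC1 libraries and 4.82 to 6.4 CPM in MI cDC2. Mural cell markers summed to 2.56 to 5.75 CPM in the MI cDC1 libraries and 7.73 to 15.6 CPM in MI cDC2, and cardiomyocyte markers to 9.27 to 22.3 CPM in the MI cDC1 libraries and 5.55 to 13.5 CPM in MI cDC2. Endothelial markers summed to 34.6 to 49.8 CPM in the MI cDC1 libraries and 47.1 to 59.1 CPM in MI cDC2. Neutrophil markers summed to 1.33 to 2.37 CPM in the MI cDC1 libraries and 23 to 36.9 CPM in MI cDC2, with S100a9, Ngp and Camp at 0 in all 7 libraries. T cell markers summed to 2.16 to 4.92 CPM in the MI cDC1 libraries and 29.2 to 47.3 CPM in MI cDC2, with Cd3e and Cd3g at 0. These sums were all below 100 CPM. B cell markers summed to 157 to 163 CPM in the MI cDC1 libraries and 10.0 to 11.8 CPM in MI cDC2, led by Fcrla (155 CPM in MI cDC1 and 5.03 CPM in MI cDC2), with Pax5 at 0. Mast cell markers summed to 288 to 336 CPM in the MI cDC1 libraries and 140.5 to 182 CPM in MI cDC2, led by Kit (316 CPM in MI cDC1 and 155 CPM in MI cDC2), with the proteases Mcpt4, Tpsb2 and Cma1 at 0. Both leading genes are also known outside those lineages. Markers of NK and innate lymphoid cells summed to 13.5 to 18 CPM in the MI cDC1 libraries and 64.2 to 93.2 CPM in MI cDC2. Those of plasmacytoid dendritic cells summed to 109.9 to 158 CPM in the MI cDC1 libraries and 181 to 188 CPM in MI cDC2, and those of erythroid cells and platelets to 0 to 5.57 CPM in the MI cDC1 libraries and 0.992 to 2.6 CPM in MI cDC2. Of the tested members, 3 of 8 T cell, 3 of 9 neutrophil and 4 of 10 NK and innate lymphoid markers were called lower in MI cDC1 and 0 higher. Of 9 tested plasmacytoid markers, 1 was called higher and 3 lower. Over all tested genes, 16.2% were lower and 10.6% higher. With 4 libraries against 3, an exact two-sided permutation test cannot give a p under 0.0571. None of the 12 sums passed it (lowest Benjamini-Hochberg adjusted p = 0.0762).

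Across the transcriptome, 3494 of 13039 tested genes (26.8%) differed between MI cDC1 and MI cDC2 at an adjusted p under 0.05. Of these, 1378 were higher in MI cDC1 (10.6% of the genes tested) and 2116 were lower (16.2%). Differences of at least 2-fold were more often on the cDC2 side: 658 genes were at least 2-fold higher in MI cDC1 (5.05%) and 1467 were at least 2-fold lower (11.3%). The median log2 fold change over all genes was -0.01. Leaving out 1 library at a time gave 1065 to 1295 higher and 1818 to 1957 lower genes, and without replicate 1 of both groups 991 were higher and 1674 were lower. For 4772 genes (36.6%) the 4 MI cDC1 libraries did not overlap the 3 MI cDC2 libraries.

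**Figure D2:**
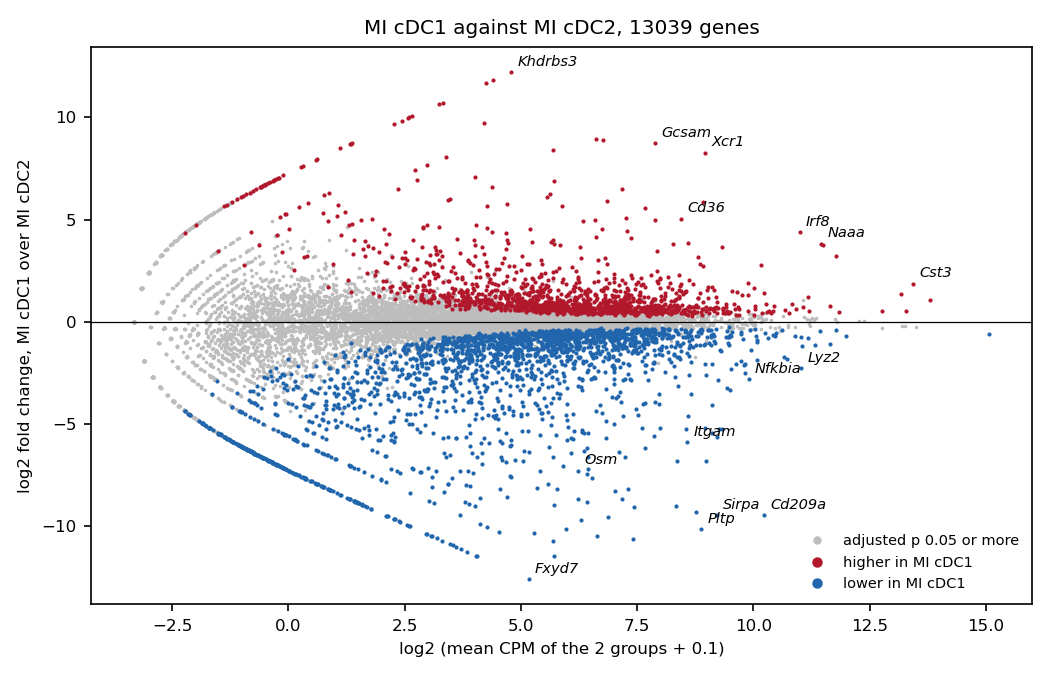
Log2 fold change of MI cDC1 over MI cDC2 (vertical axis) against log2 mean CPM of both groups (horizontal axis) for the 13039 tested genes; each point is 1 gene, red where called higher and blue where called lower in MI cDC1. The outer curves are genes with 0 reads in 1 group.

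Of the 12 largest differences in favour of MI cDC1, among genes with at least 10 CPM, 7 were in genes with 0 reads in all 3 MI cDC2 libraries. Khdrbs3, an RNA-binding splicing factor, had 66, 48.6, 54.1 and 51.4 CPM in MI cDC1, against 0 in each MI cDC2 library, which is at least 569-fold higher with 3 counts over the group taken as the limit for 0 (edgeR adjusted p = 2.57e-11). Gramd2 was at least 439-fold higher (edgeR adjusted p = 1.39e-06) and Dkk3, a secreted protein of the Dickkopf family, at least 392-fold (edgeR adjusted p = 4.40e-05). Cyp8b1, a sterol hydroxylase known from bile acid synthesis in liver, was at least 205-fold higher (edgeR adjusted p = 1.13e-08) and Clnk, an adaptor of immune receptors, at least 195-fold (edgeR adjusted p = 7.21e-07). Gpr33, a chemoattractant-like receptor, and Plce1, a phospholipase C, were also at 0 in MI cDC2 and averaged 12.4 ± 3.1 CPM and 10.6 ± 2.22 CPM in MI cDC1. Gcsam, Ttc39a, Xcr1, Clec9a and Tctn2 completed the 12 largest. Gcsam, an adaptor known from germinal centre B cells, reached 429, 500.3, 509.5 and 452 CPM in MI cDC1, against 0.0941, 0.892 and 2.31 CPM in MI cDC2 (edgeR adjusted p = 2.99e-09), so it was abundant in MI cDC1 and near 0 in MI cDC2.

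On the cDC2 side the 12 largest differences included 9 genes with 0 reads in all 4 MI cDC1 libraries. Fxyd7, a regulator of the sodium pump, was at 0 in each MI cDC1 library, against 73.3, 71.9 and 69.3 CPM in MI cDC2, at least 963-fold lower in MI cDC1 (edgeR adjusted p = 1.05e-10). Lgi4, a secreted protein known from glia, was at least 448-fold lower (edgeR adjusted p = 1.22e-13). Timp1, an inhibitor of matrix metalloproteinases, was at least 435-fold lower (edgeR adjusted p = 5.12e-07), and Gcnt1, a glycosyltransferase of O-glycan branching, at least 383-fold (edgeR adjusted p = 4.51e-16). Creb5, Cxcl14, Selp (P-selectin), Pilrb2 and Sdc1 (syndecan-1) were also at 0 in MI cDC1 and averaged 19.6 to 25.8 CPM in MI cDC2. Myo1e, an unconventional myosin, Cd33, a Siglec, and Clec10a, a galactose-binding lectin, had at most 1 CPM in each MI cDC1 library. Clec10a had 0.617, 0, 0.0928 and 0.102 CPM in MI cDC1, against 288, 370.3 and 355 CPM in MI cDC2 (edgeR adjusted p = 2.87e-18).

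Of 26 cDC1 marker genes in a longer list, Gpr141b was not matched in the files, and 24 of 25 tested members were higher in MI cDC1, 0 were lower and 1 was not called (median log2 fold change 4.40). Ppt1, a lysosomal thioesterase, averaged 5389.6 ± 338 CPM in MI cDC1 and 405 ± 43.1 CPM in MI cDC2 (log2 fold change 3.73 ± 0.13 SE, edgeR adjusted p = 8.76e-21). Naaa, a lysosomal amidase of N-acylethanolamines, averaged 5266 ± 281 CPM in MI cDC1 and 374 ± 44.3 CPM in MI cDC2 (log2 fold change 3.82 ± 0.13 SE, edgeR adjusted p = 8.76e-21). The exception was Cd8a (6.25 ± 1.47 CPM in MI cDC1 and 2.12 ± 2.42 CPM in MI cDC2; edgeR adjusted p = 0.285), which marks cDC1 of lymphoid organs. For the cDC2 markers, 2 of 27 tested members were higher in MI cDC1, 20 were lower and 5 were not called (median log2 fold change -5.81). The 2 that went the other way were Notch2 and the inhibitory lectin gene Clec12a. Notch2 was at 416 CPM in MI cDC1 and 235 CPM in MI cDC2 (edgeR adjusted p = 0.00117). Clec12a was at 266 CPM in MI cDC1 and 169 CPM in MI cDC2 (edgeR adjusted p = 3.72e-04). Ccr2, the receptor that brings monocytes and precursors of dendritic cells into tissue, was high in both groups (2076, 2392, 2497 and 2499 CPM in MI cDC1, against 1981, 2024 and 2439 CPM in MI cDC2; edgeR adjusted p = 0.537), and the groups overlapped.

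Among 45 transcription factors of dendritic cells, 9 of 45 tested members were higher in MI cDC1, 25 were lower and 11 were not called (median log2 fold change -0.63). The 9 higher ones were Irf8, Batf3, Id2, Zbtb46, Irf5, Notch2, Rbpj, Mycl and Ahr. Mycl, which supports growth of cDC1, averaged 446 ± 40.2 CPM in MI cDC1 and 40.4 ± 6.13 CPM in MI cDC2 (log2 fold change 3.47 ± 0.25 SE, edgeR adjusted p = 7.40e-13). Id2, an inhibitor of E proteins, averaged 1497 ± 138 CPM in MI cDC1 and 403 ± 63.4 CPM in MI cDC2 (log2 fold change 1.89 ± 0.19 SE, edgeR adjusted p = 1.06e-09). Ahr, the aryl hydrocarbon receptor, was at 413 CPM in MI cDC1 and 92.8 CPM in MI cDC2 (edgeR adjusted p = 4.07e-10). Irf5 was at 725 CPM in MI cDC1 and 439 CPM in MI cDC2 (edgeR adjusted p = 2.26e-06). Rbpj, the partner of NOTCH receptors in the nucleus, was at 412 CPM in MI cDC1 and 293 CPM in MI cDC2 (edgeR adjusted p = 0.00444). On the lower side, Irf4, the factor that cDC2 need for migration, had 4.73, 10.6, 6.5 and 7.07 CPM in MI cDC1, against 79.9, 103 and 103 CPM in MI cDC2 (log2 fold change -3.72 ± 0.30 SE, edgeR adjusted p = 1.21e-11). Zeb2, a repressor of Id2, was at 0.905 CPM in MI cDC1 and 184 CPM in MI cDC2 (edgeR adjusted p = 6.95e-12). Prdm1, which encodes Blimp-1, was at 1.1 CPM in MI cDC1 and 22.8 CPM in MI cDC2 (edgeR adjusted p = 2.52e-11). Cebpb, a factor of inflammatory genes, was at 51.7 CPM in MI cDC1 and 375 CPM in MI cDC2 (edgeR adjusted p = 6.50e-10). Bhlhe40 was at 308 CPM in MI cDC1 and 1278 CPM in MI cDC2 (edgeR adjusted p = 7.46e-06). Egr2 was at 60.0 CPM in MI cDC1 and 176 CPM in MI cDC2 (edgeR adjusted p = 3.01e-04). Nr1h3, which encodes the sterol sensor LXRα, was lower as well (0.616 CPM in MI cDC1 and 13.6 CPM in MI cDC2; edgeR adjusted p = 2.62e-08), beside the higher macrophage marker sum of MI cDC2. Bcl6, Nfil3 and Myc did not pass the test. Bcl6 was at 138 CPM in MI cDC1 and 114 CPM in MI cDC2 (edgeR adjusted p = 0.328). Nfil3 was at 158 CPM in MI cDC1 and 148 CPM in MI cDC2 (edgeR adjusted p = 0.852) and Myc at 49.3 CPM in MI cDC1 and 48.9 CPM in MI cDC2 (edgeR adjusted p = 0.99).

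Genes of MHC class I presentation were more often higher than lower in MI cDC1: 9 of 21 tested members were higher in MI cDC1, 2 were lower and 10 were not called (median log2 fold change 0.28). Tap1, a subunit of the peptide transporter, had 777, 868, 817 and 735 CPM in MI cDC1, against 251, 242 and 236 CPM in MI cDC2 (log2 fold change 1.72 ± 0.12 SE, edgeR adjusted p = 3.24e-13). Its partner Tap2 averaged 530.1 ± 33.7 CPM in MI cDC1 and 155 ± 18.8 CPM in MI cDC2 (edgeR adjusted p = 7.38e-11). The immunoproteasome subunit Psmb9 averaged 635 ± 30.5 CPM in MI cDC1 and 152 ± 8.21 CPM in MI cDC2 (log2 fold change 2.06 ± 0.16 SE, edgeR adjusted p = 5.35e-12). The proteasome activator subunit Psme1 averaged 469 ± 37.1 CPM in MI cDC1 and 179 ± 6.74 CPM in MI cDC2 (edgeR adjusted p = 1.33e-09). The 2 lower members, H2-D1 and Cd1d1, lost their calls without MI cDC2 replicate 1 (edgeR adjusted p = 0.0692 and 0.146), and H2-D1 also without MI cDC2 replicate 3 (0.0610).

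In the list of cross-presentation and phagosome genes, 7 of 22 tested members were higher in MI cDC1, 7 were lower and 8 were not called (median log2 fold change -0.13). Wdfy4, which cDC1 require to cross-present cell-associated antigen, averaged 1992 ± 149 CPM in MI cDC1 and 288 ± 24.4 CPM in MI cDC2 (log2 fold change 2.79 ± 0.24 SE, edgeR adjusted p = 8.94e-11). The small GTPase genes Rab43 and Rab11a were higher too. Rab43 was at 846 CPM in MI cDC1 and 263 CPM in MI cDC2 (edgeR adjusted p = 2.35e-13). Rab11a was at 316 CPM in MI cDC1 and 146 CPM in MI cDC2 (edgeR adjusted p = 7.51e-07). The lower members included the phagosomal NADPH oxidase. Its catalytic subunit gene Cybb had 5.86, 8.67, 12.1 and 8.6 CPM in MI cDC1, against 1132, 802 and 1062 CPM in MI cDC2 (log2 fold change -6.82 ± 0.19 SE, edgeR adjusted p = 8.09e-23), the smallest adjusted p of the named genes. Syk, the kinase downstream of lectin and Fc receptors, and Rac2, a GTPase of the oxidase, were also lower. Syk was at 58.6 CPM in MI cDC1 and 193 CPM in MI cDC2 (edgeR adjusted p = 1.14e-09). Rac2 was at 207 CPM in MI cDC1 and 448 CPM in MI cDC2 (edgeR adjusted p = 7.69e-09).

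For MHC class II presentation, 1 of 18 tested members was higher in MI cDC1, 7 were lower and 10 were not called (median log2 fold change -0.24). The lower members included proteases and a reductase that cut and unfold antigen in the endosome. Ctss, the main protease of invariant chain, averaged 747 ± 32.6 CPM in MI cDC1 and 2472 ± 346 CPM in MI cDC2 (log2 fold change -1.73 ± 0.14 SE, edgeR adjusted p = 5.35e-12). Lgmn averaged 93.6 ± 14.2 CPM in MI cDC1 and 371 ± 95.4 CPM in MI cDC2 (edgeR adjusted p = 5.75e-11). Ctsl averaged 6.84 ± 2.06 CPM in MI cDC1 and 58.8 ± 11 CPM in MI cDC2 (edgeR adjusted p = 1.09e-07). Ifi30, which encodes the thiol reductase GILT, averaged 193 ± 16.7 CPM in MI cDC1 and 564 ± 15.7 CPM in MI cDC2 (edgeR adjusted p = 2.18e-10). March1, a ubiquitin ligase that removes MHC class II from the surface, was the 1 higher member (212 CPM in MI cDC1 and 89.9 CPM in MI cDC2; edgeR adjusted p = 1.76e-05). For the wider list of cathepsins and lysosomal genes, 5 of 28 tested members were higher in MI cDC1, 21 were lower and 2 were not called (median log2 fold change -1.77). Ctsa, a carboxypeptidase of the lysosome, had 126, 150.1, 130.2 and 119 CPM in MI cDC1, against 1272, 1178 and 1299.9 CPM in MI cDC2 (log2 fold change -3.25 ± 0.11 SE, edgeR adjusted p = 8.76e-21). Ctsh and Ctsc were lower. Ctsh was at 335 CPM in MI cDC1 and 1431 CPM in MI cDC2 (edgeR adjusted p = 3.38e-14). Ctsc was at 468 CPM in MI cDC1 and 1697 CPM in MI cDC2 (edgeR adjusted p = 6.14e-13). The 5 higher members were Naaa, Cst3, Ctse, Psap and Npc2, the last of which is named because it completes them. Cst3, which encodes the protease inhibitor cystatin C, had 18421, 16392, 16232 and 18614 CPM in MI cDC1, against 4631, 4867 and 4921 CPM in MI cDC2 (log2 fold change 1.86 ± 0.14 SE, edgeR adjusted p = 2.69e-12). Ctse, an endosomal aspartic protease, averaged 169 ± 19.1 CPM in MI cDC1 and 31.1 ± 6.31 CPM in MI cDC2 (edgeR adjusted p = 2.94e-10).

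Receptors for microbial and damage signals differed in both directions. For Toll-like receptors and adaptors, 4 of 25 tested members were higher in MI cDC1, 13 were lower and 8 were not called (median log2 fold change -0.47). Tlr3, the sensor of double-stranded RNA, averaged 399 ± 41.5 CPM in MI cDC1 and 8.46 ± 3.42 CPM in MI cDC2 (log2 fold change 5.55 ± 0.41 SE, edgeR adjusted p = 9.94e-12). Tlr11 and Tlr12 sense profilin of protozoa. Tlr11 was at 454 CPM in MI cDC1 and 14.5 CPM in MI cDC2 (edgeR adjusted p = 2.74e-11). Tlr12 was at 39.4 CPM in MI cDC1 and 1.86 CPM in MI cDC2 (edgeR adjusted p = 2.45e-07). The fourth higher member, Tlr13, lost its call without MI cDC2 replicate 3 (edgeR adjusted p = 0.0536). The cell surface receptor gene Tlr2 had 71.5, 48.7, 71.1 and 64.6 CPM in MI cDC1, against 639.9, 722 and 862 CPM in MI cDC2 (log2 fold change -3.53 ± 0.18 SE, edgeR adjusted p = 5.37e-17). Tlr1 averaged 11.5 ± 1.75 CPM in MI cDC1 and 57 ± 5.22 CPM in MI cDC2 (edgeR adjusted p = 5.24e-13). Tlr8 was at 0 in all 4 MI cDC1 libraries and averaged 16.7 ± 4.76 CPM in MI cDC2 (edgeR adjusted p = 4.12e-16). Among cytosolic sensors and inflammasome genes, 3 of 26 tested members were higher in MI cDC1, 12 were lower and 11 were not called (median log2 fold change -0.58). Nlrp3, the best known inflammasome sensor, had 9.97, 19.2, 12.3 and 15.6 CPM in MI cDC1, against 90.0, 121 and 107 CPM in MI cDC2 (log2 fold change -2.89 ± 0.24 SE, edgeR adjusted p = 2.40e-11). Nlrc4 was at 1.11 CPM in MI cDC1 and 17.3 CPM in MI cDC2 (edgeR adjusted p = 2.38e-09). Ddx58, which encodes RIG-I, was at 8.35 CPM in MI cDC1 and 50.7 CPM in MI cDC2 (edgeR adjusted p = 1.33e-08). The 3 higher members were Il18, Mb21d1 and Zbp1. Il18 was at 38.3 CPM in MI cDC1 and 10.4 CPM in MI cDC2. Mb21d1, which encodes the DNA sensor cGAS, was at 38.2 CPM in MI cDC1 and 15.5 CPM in MI cDC2 and Zbp1 at 55.9 CPM in MI cDC1 and 25.1 CPM in MI cDC2.

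C-type lectins, most of which bind glycans of microbes or of the host, were mostly lower in MI cDC1: 5 of 40 tested members were higher in MI cDC1, 27 were lower and 8 were not called (median log2 fold change -4.56). Clec7a, which encodes the β-glucan receptor dectin-1, averaged 17.6 ± 5.85 CPM in MI cDC1 and 338 ± 63.1 CPM in MI cDC2 (log2 fold change -4.27 ± 0.24 SE, edgeR adjusted p = 3.76e-15). Mrc1, the mannose receptor, averaged 0.352 ± 0.572 CPM in MI cDC1 and 171 ± 25.4 CPM in MI cDC2 (edgeR adjusted p = 1.07e-13). The higher members were Clec9a, Clec12a, Clec4b2, Cd207 and, named because it completes the 5, Ly75; Cd207, which encodes langerin, averaged 97 ± 19.3 CPM in MI cDC1 and 15.5 ± 3.9 CPM in MI cDC2 (edgeR adjusted p = 1.88e-05). For Fc receptors and paired receptors, 4 of 39 tested members were higher in MI cDC1, 29 were lower and 6 were not called (median log2 fold change -4.49). Pilra and Cd200r1, which pass inhibitory signals, and Cd33 were among the lower ones. Pilra was at 0.273 CPM in MI cDC1 and 81.1 CPM in MI cDC2 (edgeR adjusted p = 5.21e-19). Cd33 was at 0.0493 CPM in MI cDC1 and 103 CPM in MI cDC2 (edgeR adjusted p = 4.85e-18). Cd200r1 was at 19.2 CPM in MI cDC1 and 68.4 CPM in MI cDC2 (edgeR adjusted p = 3.07e-07). Fcrla, an intracellular Fc receptor-like protein known from B cells, was the clearest of the higher ones, with 155, 154, 160.3 and 152 CPM in MI cDC1, against 6.59, 4.36 and 4.14 CPM in MI cDC2 (edgeR adjusted p = 8.02e-05). Without replicate 1 of both groups 2 members of this list were called higher. Clec4a1 to Clec4a4, the Cd209, Pilr, Sirpb1, Fcr-like, Ms4a and Ifi200 families have close copies, and the sources used here do not say how reads shared by copies were counted.

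**Figure D3:**
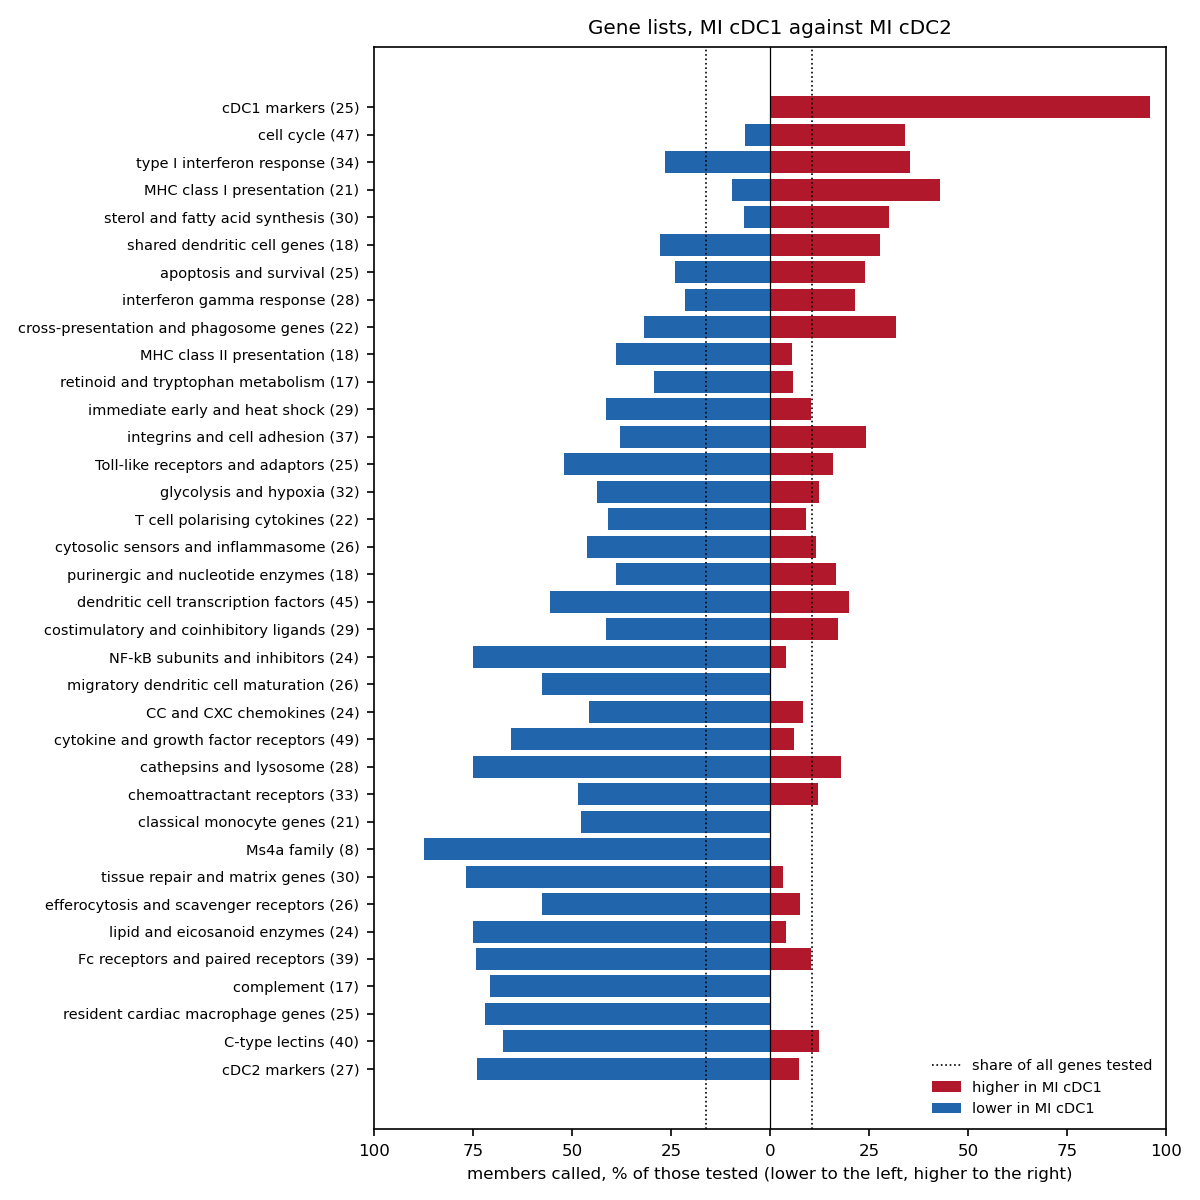
Share of each gene list called between MI cDC1 and MI cDC2, in % of the members tested (number in brackets): lower in MI cDC1 to the left in blue, higher to the right in red, lists ordered by median log2 fold change. Dotted lines mark the shares of all tested genes (16.2% lower, 10.6% higher); cDC1 markers, cell cycle, type I interferon response and MHC class I presentation lie furthest up.

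Cytokines and ligands that act on T cells were lower in MI cDC1 more often than higher. For T cell polarising cytokines, 2 of 22 tested members were higher in MI cDC1, 9 were lower and 11 were not called (median log2 fold change -0.52). Tnf had 7.71, 12.1, 10.1 and 6.25 CPM in MI cDC1, against 114, 85.7 and 102 CPM in MI cDC2 (log2 fold change -3.47 ± 0.25 SE, edgeR adjusted p = 8.16e-13). Osm, a cytokine of the IL-6 family, had 0.925, 0.69, 0.928 and 1.23 CPM in MI cDC1, against 189, 131 and 126 CPM in MI cDC2 (log2 fold change -7.29 ± 0.34 SE, edgeR adjusted p = 4.00e-17). Tgfb1 averaged 147 ± 10.8 CPM in MI cDC1 and 263 ± 10.8 CPM in MI cDC2 (edgeR adjusted p = 1.43e-05). For both Tnf and Osm the highest MI cDC1 library was far below the lowest MI cDC2 library. Of costimulatory and coinhibitory ligands and receptors, 5 of 29 tested members were higher in MI cDC1, 12 were lower and 12 were not called (median log2 fold change -0.64). Tnfsf9, which encodes 4-1BB ligand, averaged 14.7 ± 2.15 CPM in MI cDC1 and 349 ± 42 CPM in MI cDC2 (log2 fold change -4.57 ± 0.25 SE, edgeR adjusted p = 1.41e-15). Cd80 averaged 6.69 ± 1.17 CPM in MI cDC1 and 22.5 ± 5.22 CPM in MI cDC2 (edgeR adjusted p = 7.51e-06). Cd274, which encodes PD-L1, averaged 17.3 ± 6.4 CPM in MI cDC1 and 52.9 ± 17 CPM in MI cDC2 (edgeR adjusted p = 2.33e-04). Cd86, which binds the same T cell receptors as CD80, went the other way, with 449, 418, 423 and 479 CPM in MI cDC1, against 216, 221 and 178 CPM in MI cDC2 (log2 fold change 1.11 ± 0.18 SE, edgeR adjusted p = 1.43e-05). So did Havcr2, which encodes TIM-3, the inhibitory receptor gene Btla and Slamf8. Havcr2 was at 159.6 CPM in MI cDC1 and 56.9 CPM in MI cDC2 (edgeR adjusted p = 6.03e-06). Btla was at 804 CPM in MI cDC1 and 88.2 CPM in MI cDC2 (edgeR adjusted p = 1.87e-04). Slamf8 was at 167 CPM in MI cDC1 and 52.5 CPM in MI cDC2 (edgeR adjusted p = 8.04e-09).

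For genes that dendritic cells use as they mature and leave for the lymph node, 0 of 26 tested members were higher in MI cDC1, 15 were lower and 11 were not called (median log2 fold change -1.12). Cflar, an inhibitor of caspase-8, averaged 30.5 ± 8.77 CPM in MI cDC1 and 100.0 ± 15.1 CPM in MI cDC2 (log2 fold change -1.71 ± 0.21 SE, edgeR adjusted p = 4.51e-08). Samsn1, an adaptor, averaged 29.8 ± 14.5 CPM in MI cDC1 and 113 ± 18.1 CPM in MI cDC2 (edgeR adjusted p = 1.20e-04). Relb, the NF-kB subunit of mature dendritic cells, averaged 66.1 ± 28.6 CPM in MI cDC1 and 151 ± 29.8 CPM in MI cDC2 (edgeR adjusted p = 0.00372). Several genes of this list varied with the library number. Ccr7, Fscn1, Ccl22 and Il12b are named for this after their values were seen. Ccr7, the receptor for lymph node homing, had 411, 184, 123 and 81.6 CPM in MI cDC1, against 1039, 535 and 412 CPM in MI cDC2, so that its groups did not overlap. Fscn1, which encodes the actin bundler fascin, had 214, 103, 39.4 and 31.3 CPM in MI cDC1, against 786, 246 and 159 CPM in MI cDC2. In both groups replicate 1 was the highest: Ccr7 was 3.17 times and Fscn1 3.68 times the mean of the other libraries in MI cDC1, and 2.20 and 3.88 times in MI cDC2. Il12b, the IL-12 subunit, had 121, 30.3, 28.1 and 21.1 CPM in MI cDC1, against 32.5, 15.9 and 5.01 CPM in MI cDC2. Ccl22, a chemokine of mature dendritic cells, had 199, 50.8, 67 and 25.6 CPM in MI cDC1, against 336, 107 and 66.7 CPM in MI cDC2. The edgeR test did not pair libraries by number, so the rise in replicate 1 of both groups counted as spread within groups. None of the 4 passed that test (edgeR adjusted p = 0.108, 0.0733, 0.424 and 0.255 for Ccr7, Fscn1, Ccl22 and Il12b). Without MI cDC1 replicate 1, Ccr7 and Fscn1 passed it (log2 fold change -2.35 and -2.77, edgeR adjusted p = 0.0432 and 0.0255). Neither passed it without MI cDC2 replicate 1 (edgeR adjusted p = 0.36 and 0.47) or without replicate 1 of both groups (edgeR adjusted p = 0.167 and 0.192). The number of list members called lower was 18 without MI cDC1 replicate 1. That number was 11 without MI cDC2 replicate 1 and 15 without replicate 1 of both groups.

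Chemokines and their receptors were lower in MI cDC1 more often than higher. For the chemokines, 2 of 24 tested members were higher in MI cDC1, 11 were lower and 11 were not called (median log2 fold change -1.14). Ccl9 had 7.71, 5.42, 5.66 and 4.51 CPM in MI cDC1, against 607, 632 and 717 CPM in MI cDC2 (log2 fold change -6.81 ± 0.30 SE, edgeR adjusted p = 5.19e-17). The neutrophil-attracting Cxcl2 had 3.91, 1.28, 1.86 and 3.07 CPM in MI cDC1, against 157, 129 and 125 CPM in MI cDC2 (log2 fold change -5.76 ± 0.29 SE, edgeR adjusted p = 7.26e-16). The 2 higher members were Cxcl9, a ligand of CXCR3 that attracts activated T cells, and Ccl7. Cxcl9 averaged 25.7 ± 10.5 CPM in MI cDC1 and 3.25 ± 2.25 CPM in MI cDC2 (edgeR adjusted p = 3.69e-04), and without MI cDC2 replicate 1 its log2 fold change was 3.71, against 2.97 with all libraries. Ccl7 averaged 11.4 ± 1.14 CPM in MI cDC1 and 3.37 ± 1.52 CPM in MI cDC2 (edgeR adjusted p = 1.81e-04). For chemoattractant receptors, 4 of 33 tested members were higher in MI cDC1, 16 were lower and 13 were not called (median log2 fold change -2.13). Ccrl2, an atypical receptor for chemerin, had 68.1, 66.9, 51.9 and 57.2 CPM in MI cDC1, against 1111, 1055 and 974 CPM in MI cDC2 (log2 fold change -4.10 ± 0.18 SE, edgeR adjusted p = 3.84e-18). Cx3cr1, the fractalkine receptor, was at 0.123 CPM in MI cDC1 and 197 CPM in MI cDC2 (edgeR adjusted p = 2.49e-19). Ccr1 was at 0.796 CPM in MI cDC1 and 257 CPM in MI cDC2 (edgeR adjusted p = 1.30e-13). Cxcr3 had 310.1, 309.5, 293 and 272 CPM in MI cDC1, against 5.46, 7.44 and 13.3 CPM in MI cDC2 (log2 fold change 5.08 ± 0.43 SE, edgeR adjusted p = 1.82e-10). P2ry14, a receptor for UDP-sugars released by damaged cells, averaged 106 ± 12.4 CPM in MI cDC1 and 7.94 ± 1.14 CPM in MI cDC2 (edgeR adjusted p = 1.79e-11). The fourth higher receptor beside Xcr1, Cxcr3 and P2ry14 was Ptger2, a receptor for prostaglandin E (16.8 CPM in MI cDC1 and 2.61 CPM in MI cDC2; edgeR adjusted p = 1.37e-04).

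Receptors for cytokines and growth factors lay mostly on the cDC2 side: 3 of 49 tested members were higher in MI cDC1, 32 were lower and 14 were not called (median log2 fold change -1.15). Csf1r had 40.6, 20.9, 40.8 and 29 CPM in MI cDC1, against 1351, 1100.3 and 1309.8 CPM in MI cDC2 (log2 fold change -5.25 ± 0.20 SE, edgeR adjusted p = 1.34e-19). Il2rg, the common γ chain, averaged 28.5 ± 13.2 CPM in MI cDC1 and 473 ± 8.68 CPM in MI cDC2 (edgeR adjusted p = 5.97e-14). Tgfbr1 averaged 63 ± 7.4 CPM in MI cDC1 and 344 ± 23.9 CPM in MI cDC2 (edgeR adjusted p = 1.41e-12). Il1rl1, the IL-33 receptor, averaged 0.195 ± 0.212 CPM in MI cDC1 and 104 ± 10.3 CPM in MI cDC2 (edgeR adjusted p = 3.20e-17). The 3 higher members were Flt3, Ifnar2 and Acvrl1. Ifnar2, a chain of the type I interferon receptor, was at 297 CPM in MI cDC1 and 214 CPM in MI cDC2 (edgeR adjusted p = 0.00651). Acvrl1, a receptor for bone morphogenetic proteins, was at 194 CPM in MI cDC1 and 69.4 CPM in MI cDC2 (edgeR adjusted p = 8.16e-10). The NF-kB list moved in 1 direction with 1 exception: 1 of 24 tested members was higher in MI cDC1, 18 were lower and 5 were not called (median log2 fold change -1.04). The lower members included inhibitors that are themselves targets of the pathway. Nfkbia, which encodes IκBα, had 279, 267, 206 and 204 CPM in MI cDC1, against 1742, 1517 and 1735 CPM in MI cDC2 (log2 fold change -2.80 ± 0.16 SE, edgeR adjusted p = 1.51e-15). Nfkbiz had 37.2, 42, 17.2 and 27.5 CPM in MI cDC1, against 1197, 1396 and 969 CPM in MI cDC2 (log2 fold change -5.26 ± 0.31 SE, edgeR adjusted p = 1.28e-13). Tnfaip3, which encodes the ubiquitin editor A20, had 151, 155, 131 and 135 CPM in MI cDC1, against 983, 911 and 725 CPM in MI cDC2 (log2 fold change -2.61 ± 0.21 SE, edgeR adjusted p = 1.05e-11). In all 3 genes every MI cDC2 library was more than 4 times as high as every MI cDC1 library. Rel was lower too (111 CPM in MI cDC1 and 232 CPM in MI cDC2; edgeR adjusted p = 5.28e-05). The exception was Chuk, the kinase subunit IKKα (139 CPM in MI cDC1 and 56.7 CPM in MI cDC2; edgeR adjusted p = 1.60e-07).

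Genes listed as efferocytosis and scavenger receptors were more often lower than higher in MI cDC1, against 16.2% lower and 10.6% higher over all tested genes. Clec9a, which was higher in MI cDC1 as given above, is not on this list. For efferocytosis and scavenger receptors, 2 of 26 tested members were higher in MI cDC1, 15 were lower and 9 were not called (median log2 fold change -2.83). Scarb1, the higher member beside Cd36, lost its call in 5 of the 7 fits that left out 1 MI library. Without MI cDC2 replicate 1, and without replicate 1 of both groups, 1 member of this list was called higher. Cd36, which binds oxidised lipids and dying cells, had 675, 584, 684 and 762 CPM in MI cDC1, against 23.1, 21.4 and 16.8 CPM in MI cDC2 (log2 fold change 5.05 ± 0.32 SE, edgeR adjusted p = 3.24e-13). The receptor tyrosine kinase gene Axl had 46.6, 25.4, 27.3 and 21.2 CPM in MI cDC1, against 948, 566 and 709 CPM in MI cDC2 (log2 fold change -4.62 ± 0.26 SE, edgeR adjusted p = 2.19e-14). Mfge8, the bridge between phosphatidylserine and integrins, averaged 6.06 ± 0.438 CPM in MI cDC1 and 94.3 ± 9.23 CPM in MI cDC2 (log2 fold change -3.96 ± 0.24 SE, edgeR adjusted p = 5.93e-15). Msr1, a scavenger receptor of macrophages, averaged 0.149 ± 0.131 CPM in MI cDC1 and 46.8 ± 8.05 CPM in MI cDC2 (edgeR adjusted p = 8.07e-16). For complement, 0 of 17 tested members were higher in MI cDC1, 12 were lower and 5 were not called (median log2 fold change -4.53). C1qb and C1qc were lower together with C1qa. C1qb was at 1.97 CPM in MI cDC1 and 161 CPM in MI cDC2. C1qc was at 1.71 CPM in MI cDC1 and 172 CPM in MI cDC2. For genes of resident cardiac macrophages, 0 of 25 tested members were higher in MI cDC1, 18 were lower and 7 were not called (median log2 fold change -4.54). Adgre1, which encodes F4/80, averaged 7.84 ± 2.56 CPM in MI cDC1 and 105 ± 35.6 CPM in MI cDC2 (log2 fold change -3.74 ± 0.23 SE, edgeR adjusted p = 2.39e-14), against 1521 ± 135 CPM in the macrophages of infarcted hearts. For genes of classical monocytes, 0 of 21 tested members were higher in MI cDC1, 10 were lower and 11 were not called (median log2 fold change -2.28). S100a4, a calcium-binding protein, averaged 3.65 ± 1.3 CPM in MI cDC1 and 159.5 ± 27.3 CPM in MI cDC2 (log2 fold change -5.45 ± 0.27 SE, edgeR adjusted p = 3.48e-17). Lyz2, lysozyme, averaged 713 ± 104 CPM in MI cDC1 and 3460.4 ± 1215 CPM in MI cDC2 (edgeR adjusted p = 9.68e-11). Ly6c2 was near 0 in both groups. Of the Ms4a family, 0 of 8 tested members were higher in MI cDC1, 7 were lower and 1 was not called (median log2 fold change -2.66). Ms4a6d was at 24.1 CPM in MI cDC1 and 382 CPM in MI cDC2 (edgeR adjusted p = 6.25e-18). The macrophage marker sum was higher in MI cDC2 beside all 5 of these lists, as given above.

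For integrins and adhesion molecules, 9 of 37 tested members were higher in MI cDC1, 14 were lower and 14 were not called (median log2 fold change -0.35). Itgae, the chain of CD103 that binds E-cadherin, averaged 953 ± 82.5 CPM in MI cDC1 and 16.5 ± 4.74 CPM in MI cDC2 (log2 fold change 5.85 ± 0.66 SE, edgeR adjusted p = 2.20e-07). Itga8 was at 69.8 CPM in MI cDC1 and 2.99 CPM in MI cDC2 (edgeR adjusted p = 1.17e-06). Cd81 was at 295 CPM in MI cDC1 and 84.7 CPM in MI cDC2 (edgeR adjusted p = 2.18e-06). F11r, the junctional adhesion molecule JAM-A, had 26.2, 26.8, 19.7 and 19 CPM in MI cDC1, against 338, 369 and 402 CPM in MI cDC2 (log2 fold change -4.01 ± 0.20 SE, edgeR adjusted p = 8.72e-17). Itga5, a fibronectin receptor chain, averaged 31.7 ± 5.16 CPM in MI cDC1 and 169.8 ± 29.3 CPM in MI cDC2 (edgeR adjusted p = 3.23e-10). For tissue repair and matrix genes, 1 of 30 tested members was higher in MI cDC1, 23 were lower and 6 were not called (median log2 fold change -2.72). Mmp12, macrophage elastase, averaged 0.599 ± 0.695 CPM in MI cDC1 and 342 ± 69.8 CPM in MI cDC2 (edgeR adjusted p = 1.87e-11). Timp2 averaged 4.38 ± 1.57 CPM in MI cDC1 and 223 ± 54.2 CPM in MI cDC2 (log2 fold change -5.67 ± 0.24 SE, edgeR adjusted p = 4.02e-18). Tgm2, a transglutaminase, averaged 3.18 ± 1.81 CPM in MI cDC1 and 271 ± 35.4 CPM in MI cDC2 (edgeR adjusted p = 8.04e-13). The 1 higher member, the metalloproteinase gene Adam8, lost its call without MI cDC2 replicate 2 or 3 (edgeR adjusted p = 0.0516 and 0.0761). Without replicate 1 of both groups 0 members of this list were called higher.

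Interferon genes differed in both directions. For the type I interferon response, 12 of 34 tested members were higher in MI cDC1, 9 were lower and 13 were not called (median log2 fold change 0.44). Irf7, the amplifier of type I interferon production, had 415, 336, 398 and 417 CPM in MI cDC1, against 104, 80.3 and 129.6 CPM in MI cDC2 (log2 fold change 1.90 ± 0.21 SE, edgeR adjusted p = 1.04e-08). Trim30a averaged 237 ± 14.3 CPM in MI cDC1 and 79.8 ± 6.56 CPM in MI cDC2 (edgeR adjusted p = 5.86e-10). Oasl1 averaged 62.7 ± 12.8 CPM in MI cDC1 and 16.1 ± 5.05 CPM in MI cDC2 (edgeR adjusted p = 3.71e-07). Ifitm3, which blocks viral entry, averaged 151 ± 16.6 CPM in MI cDC1 and 535 ± 111 CPM in MI cDC2 (log2 fold change -1.82 ± 0.18 SE, edgeR adjusted p = 1.14e-09). Rtp4, Oas1a and Oas2 were lower as well. Rtp4 was at 2.47 CPM in MI cDC1 and 26.9 CPM in MI cDC2. Oas1a was at 36.1 CPM in MI cDC1 and 94.9 CPM in MI cDC2. Oas2 was at 0.508 CPM in MI cDC1 and 5.92 CPM in MI cDC2. For the interferon gamma response, 6 of 28 tested members were higher in MI cDC1, 6 were lower and 16 were not called (median log2 fold change -0.10). Without MI cDC1 replicate 1 the number lower was 10. Its higher members overlap the MHC class I list (Tap1, Psmb9). The guanylate-binding proteins Gbp2, Gbp3 and Gbp7 were lower. Gbp2 was at 2.79 CPM in MI cDC1 and 11.6 CPM in MI cDC2. Gbp3 was at 2.23 CPM in MI cDC1 and 21.2 CPM in MI cDC2 and Gbp7 at 0.862 CPM in MI cDC1 and 17.4 CPM in MI cDC2.

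Metabolic lists also differed. For glycolysis and hypoxia, 4 of 32 tested members were higher in MI cDC1, 14 were lower and 14 were not called (median log2 fold change -0.47). Pfkfb4, a regulator of glycolytic flux, averaged 12.6 ± 4.64 CPM in MI cDC1 and 101 ± 4.08 CPM in MI cDC2 (log2 fold change -3.0 ± 0.21 SE, edgeR adjusted p = 2.03e-13). The glucose transporter gene Slc2a3 averaged 3.21 ± 1.49 CPM in MI cDC1 and 33.9 ± 4.23 CPM in MI cDC2 (edgeR adjusted p = 1.79e-09). The lactate exporter gene Slc16a3 averaged 14.1 ± 5.42 CPM in MI cDC1 and 144 ± 32.9 CPM in MI cDC2 (edgeR adjusted p = 6.66e-07). Hif1a averaged 142 ± 11.9 CPM in MI cDC1 and 262 ± 6.04 CPM in MI cDC2 (edgeR adjusted p = 3.97e-04). Of the 4 higher members only Pfkp (514 CPM in MI cDC1 and 202 CPM in MI cDC2; edgeR adjusted p = 7.21e-07) was also called without MI cDC2 replicate 1. For sterol and fatty acid synthesis, 9 of 30 tested members were higher in MI cDC1, 2 were lower and 19 were not called (median log2 fold change 0.25). The regulator gene Srebf2 had 548, 474, 599.5 and 441 CPM in MI cDC1, against 265, 344 and 328 CPM in MI cDC2 (log2 fold change 0.72 ± 0.14 SE, edgeR adjusted p = 1.35e-04). Of the 2 lower members, Mvd lost its call without MI cDC2 replicate 1 (edgeR adjusted p = 0.0552). Without replicate 1 of both groups 5 members of that list were called higher. For lipid and eicosanoid enzymes, 1 of 24 tested members was higher in MI cDC1, 18 were lower and 5 were not called (median log2 fold change -2.95). Pltp, the phospholipid transfer protein, had 0.925, 0.493, 1.48 and 0.307 CPM in MI cDC1, against 1023, 797 and 982 CPM in MI cDC2 (log2 fold change -10.14 ± 0.32 SE, edgeR adjusted p = 7.50e-21). Alox5, which starts leukotriene synthesis, had 0, 0, 0.186 and 0 CPM in MI cDC1, against 75, 78.3 and 80.8 CPM in MI cDC2 (edgeR adjusted p = 2.30e-17). The 1 higher member was Plin2, a coat protein of lipid droplets (346 CPM in MI cDC1 and 197 CPM in MI cDC2; edgeR adjusted p = 1.64e-04). For retinoid and tryptophan genes, 1 of 17 tested members was higher in MI cDC1, 5 were lower and 11 were not called (median log2 fold change -0.30). Dhrs3 and Kynu were among the lower. Dhrs3 was at 26.6 CPM in MI cDC1 and 113 CPM in MI cDC2. Kynu was at 10.0 CPM in MI cDC1 and 38.2 CPM in MI cDC2. For purinergic genes, 3 of 18 tested members were higher in MI cDC1, 7 were lower and 8 were not called (median log2 fold change -0.60). Adora2b, an adenosine receptor, was lower (4.11 CPM in MI cDC1 and 49.8 CPM in MI cDC2). P2rx4, an ATP-gated channel, was lower too (66.2 CPM in MI cDC1 and 131 CPM in MI cDC2). Adk, adenosine kinase, was higher (52.1 CPM in MI cDC1 and 19.8 CPM in MI cDC2).

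More cell cycle genes were higher than lower in MI cDC1: 16 of 47 tested members were higher in MI cDC1, 3 were lower and 28 were not called (median log2 fold change 0.62). Rrm2, the ribonucleotide reductase subunit of S phase, had 98.3, 134, 109.5 and 123 CPM in MI cDC1, against 45, 38.8 and 35.8 CPM in MI cDC2 (log2 fold change 1.54 ± 0.35 SE, edgeR adjusted p = 9.85e-04). Hmgb2 was at 321 CPM in MI cDC1 and 151 CPM in MI cDC2 (edgeR adjusted p = 2.81e-05). Cdc45 was at 21.4 CPM in MI cDC1 and 7.19 CPM in MI cDC2 (edgeR adjusted p = 0.00148). Tyms was at 27.3 CPM in MI cDC1 and 13.5 CPM in MI cDC2 (edgeR adjusted p = 0.00279). The lower members included the arrest gene Cdkn1a, which encodes p21, with 110.3, 104, 118 and 124 CPM in MI cDC1, against 402, 576 and 555 CPM in MI cDC2 (log2 fold change -2.16 ± 0.22 SE, edgeR adjusted p = 3.43e-09). Ccnd2, a D-type cyclin, was lower too (39.4 CPM in MI cDC1 and 216 CPM in MI cDC2; edgeR adjusted p = 1.10e-08). For genes of apoptosis and survival, 6 of 25 tested members were higher in MI cDC1, 6 were lower and 13 were not called (median log2 fold change 0.17). The anti-apoptotic Bcl2 averaged 9.94 ± 1.33 CPM in MI cDC1 and 34.4 ± 2.58 CPM in MI cDC2 (log2 fold change -1.79 ± 0.31 SE, edgeR adjusted p = 2.59e-05). The pro-apoptotic Bcl2l11 averaged 47.3 ± 6.43 CPM in MI cDC1 and 116 ± 23 CPM in MI cDC2 (edgeR adjusted p = 5.73e-05). The caspase gene Casp6 was higher (193 CPM in MI cDC1 and 105 CPM in MI cDC2). Without MI cDC2 replicate 1, 3 members of that list were called higher, and without replicate 1 of both groups 2 were. Immediate early and heat shock genes are known to be induced by tissue digestion, and 3 of 29 tested members were higher in MI cDC1, 12 were lower and 14 were not called (median log2 fold change -0.35). Egr1, an immediate early factor, had 289.5, 293, 235 and 259 CPM in MI cDC1, against 1845, 1695 and 1073 CPM in MI cDC2 (log2 fold change -2.51 ± 0.37 SE, edgeR adjusted p = 4.60e-06). Dusp2, a phosphatase of MAP kinases, had 106, 122, 162 and 109 CPM in MI cDC1, against 355, 415 and 363 CPM in MI cDC2 (log2 fold change -1.60 ± 0.16 SE, edgeR adjusted p = 8.66e-10). Klf2 and Nr4a2 were higher. Klf2 was at 839 CPM in MI cDC1 and 291 CPM in MI cDC2 (edgeR adjusted p = 4.51e-05). Nr4a2 was at 399 CPM in MI cDC1 and 152 CPM in MI cDC2 (edgeR adjusted p = 0.00185).

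The same comparison was made in hearts without infarction. Between SS cDC1 and SS cDC2, 3675 genes (28.2%) were called, 1531 higher (11.7%) and 2144 lower (16.4%) in SS cDC1. The difference between the MI effect and the SS effect was called for 549 genes (4.21%): the log2 fold change of cDC1 over cDC2 was above that of SS in MI for 209 genes (1.60%) and below it for 340 (2.61%). Of the 16 defining cDC1 and cDC2 markers, 6 were among them (37.5%): Clec9a, Batf3, Cadm1, Naaa, Cd209a and Clec10a. Xcr1 and Sirpa did not pass the test of the difference. Xcr1 averaged 909.7 ± 104 CPM in SS cDC1 and 3.53 ± 1.81 CPM in SS cDC2, with a difference of effects (MI minus SS) of 0.26 ± 0.56 SE, edgeR adjusted p = 0.895. Sirpa averaged 1.31 ± 1.26 CPM in SS cDC1 and 826 ± 76.7 CPM in SS cDC2, with a difference of -0.35 ± 0.59 SE, edgeR adjusted p = 0.851. MI and SS libraries were different libraries throughout, so no library is shared by both effects.

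Markers of other cells also differed between MI and SS libraries. Mural cell markers summed to 2.56 to 5.75 CPM in MI cDC1 and 7.73 to 15.6 CPM in MI cDC2, against 113 to 394 CPM in SS cDC1 and 12.7 to 63.0 CPM in SS cDC2. Endothelial markers summed to 34.6 to 49.8 CPM in MI cDC1 and 47.1 to 59.1 CPM in MI cDC2, against 90.3 to 309 CPM in SS cDC1 and 50.2 to 171 CPM in SS cDC2. The highest sums of both lists were in SS cDC1 replicate 2. Monocyte and macrophage markers summed to 70.7 to 102 CPM in MI cDC1 and 1818 to 3038 CPM in MI cDC2, against 132 to 147 CPM in SS cDC1 and 4007 to 5785 CPM in SS cDC2. Neutrophil markers summed to 1.33 to 2.37 CPM in MI cDC1 and 23 to 36.9 CPM in MI cDC2, against 3.90 to 9.10 CPM in SS cDC1 and 72.1 to 167 CPM in SS cDC2. The part of these cells in the differences of effects was not tested.

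**Figure D4:**
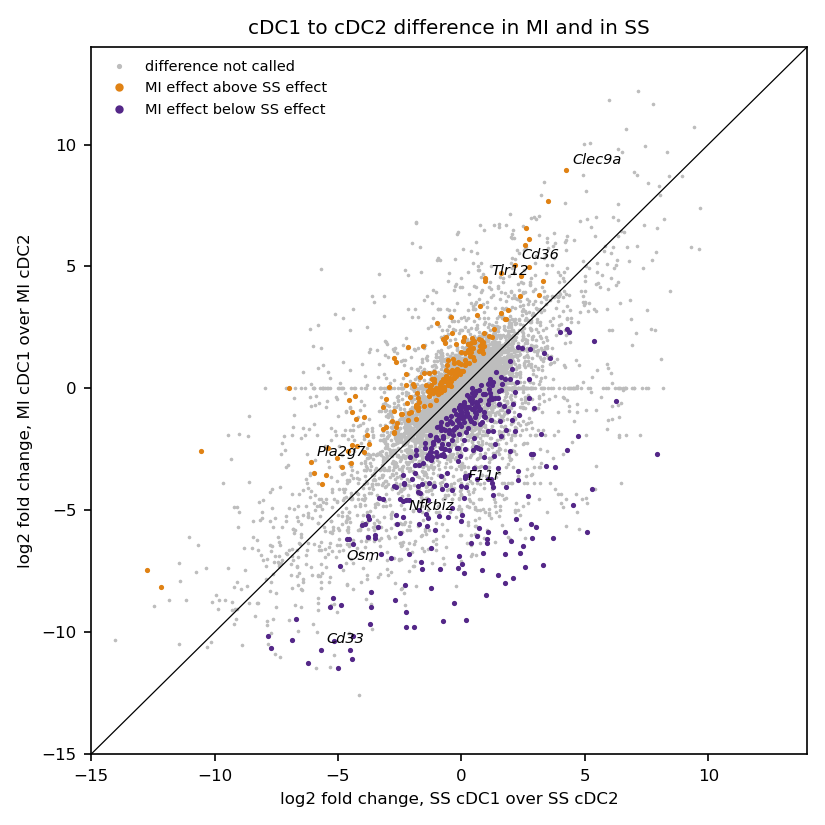
Log2 fold change of cDC1 over cDC2 in MI (vertical axis) against the same in SS (horizontal axis) for the 13039 tested genes; each point is 1 gene, and the line marks equal effects. Orange points are the 209 genes with an MI effect above the SS effect, purple points the 340 with an MI effect below it.

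Among the 25 tested cDC1 markers, 8 had a larger and 1 a smaller cDC1 to cDC2 difference in MI. Over all tested genes, 1.60% had a higher and 2.61% a lower effect in MI. Clec9a averaged 188 ± 12.7 CPM in SS cDC1 and 9.89 ± 0.919 CPM in SS cDC2, so its level in cDC2 was lower in MI than in SS, and the difference of effects was 4.70 ± 0.79 SE, edgeR adjusted p = 4.20e-04. Cd36 averaged 1310.2 ± 108 CPM in SS cDC1 and 292 ± 96.9 CPM in SS cDC2, with a difference of 2.89 ± 0.37 SE, edgeR adjusted p = 1.15e-05. Tlr11 averaged 369 ± 63.6 CPM in SS cDC1 and 55.4 ± 9.39 CPM in SS cDC2, with a difference of 2.23 ± 0.44 SE, edgeR adjusted p = 0.00207. Tlr12 averaged 39.1 ± 2.57 CPM in SS cDC1 and 20.0 ± 2.53 CPM in SS cDC2, with one of 3.43 ± 0.67 SE, edgeR adjusted p = 0.00169. For all 4 the MI cDC2 libraries lay below every SS cDC2 library. Batf3 averaged 60.1 ± 5.81 CPM in SS cDC1 and 48 ± 3.5 CPM in SS cDC2 and was not called between the subsets in SS (edgeR adjusted p = 0.217), and its difference of effects was 1.18 ± 0.28 SE, edgeR adjusted p = 0.0105. The exception was Cadm1, an adhesion molecule, at 457 ± 56.3 CPM in MI cDC1 and 149.8 ± 32.5 CPM in MI cDC2, against 586 ± 57.1 CPM in SS cDC1 and 84.2 ± 15 CPM in SS cDC2, with a difference of -1.19 ± 0.26 SE, edgeR adjusted p = 0.00452. Among cDC2 markers, Cd209a averaged 21.9 ± 5.01 CPM in SS cDC1 and 2257 ± 287 CPM in SS cDC2, with a difference of -2.77 ± 0.53 SE, edgeR adjusted p = 0.00187. Il1rl1 averaged 2.86 ± 1.28 CPM in SS cDC1 and 117 ± 30.5 CPM in SS cDC2, with a difference of -3.65 ± 0.58 SE, edgeR adjusted p = 1.11e-04. Lyz2 averaged 1473 ± 145 CPM in SS cDC1 and 19548 ± 5504 CPM in SS cDC2, with a difference of 1.45 ± 0.27 SE, edgeR adjusted p = 0.00106. Its mean in cDC2 was lower in MI than in SS, as were the monocyte and macrophage sum and the neutrophil sum.

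The NF-kB inhibitors and several cytokine and T cell ligand genes were further apart in MI than in SS. Nfkbia averaged 646 ± 91.4 CPM in SS cDC1 and 1459 ± 210.5 CPM in SS cDC2 (difference of effects -1.62 ± 0.21 SE, edgeR adjusted p = 7.91e-06). Nfkbiz averaged 151 ± 42.7 CPM in SS cDC1 and 785 ± 138 CPM in SS cDC2 (-2.89 ± 0.38 SE, edgeR adjusted p = 1.80e-05). Nfkbid averaged 17.7 ± 1.88 CPM in MI cDC1 and 266 ± 4.92 CPM in MI cDC2, against 63.5 ± 19.2 CPM in SS cDC1 and 191 ± 47.7 CPM in SS cDC2 (-2.32 ± 0.36 SE, edgeR adjusted p = 1.06e-04). Tnfaip3 averaged 232 ± 59.1 CPM in SS cDC1 and 557 ± 127 CPM in SS cDC2 (-1.35 ± 0.28 SE, edgeR adjusted p = 0.00247). In each of these genes the 4 MI cDC1 libraries were below all SS cDC1 libraries, while the means of MI cDC2 and SS cDC2 were within 2-fold of each other. Tnf averaged 45.1 ± 5.54 CPM in SS cDC1 and 68.3 ± 9.34 CPM in SS cDC2 (-2.87 ± 0.32 SE, edgeR adjusted p = 1.17e-06). Osm averaged 2.74 ± 1.73 CPM in SS cDC1 and 84 ± 22.3 CPM in SS cDC2 (-2.38 ± 0.45 SE, edgeR adjusted p = 0.00103). Tnfsf9 averaged 41.3 ± 12.1 CPM in SS cDC1 and 196 ± 68.8 CPM in SS cDC2 (-2.32 ± 0.31 SE, edgeR adjusted p = 1.32e-05). Over all tested genes, 2.61% had a lower and 1.60% a higher effect in MI at the threshold of 0.05. Of the 24 NF-kB genes, 6 had a lower and 0 a higher effect in MI at this threshold, and of the 26 maturation genes 2 had a lower and 0 a higher one. In SS, 6 of those 26 were higher and 4 lower in SS cDC1 (median log2 fold change 0.03), where 11.7% and 16.4% of all genes were.

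F11r had the smallest adjusted p of the differences of effects among the named genes. It averaged 89.1 ± 16.2 CPM in SS cDC1 and 90.4 ± 6.85 CPM in SS cDC2, which did not differ by the test (log2 fold change -0.02 ± 0.17 SE, edgeR adjusted p = 0.954). In MI it was about 4 times as high in cDC2 and about 4 times lower in cDC1, so that the difference of effects was -3.99 ± 0.26 SE, edgeR adjusted p = 5.47e-12. Mfge8 averaged 33 ± 13.4 CPM in SS cDC1 and 50.6 ± 6.04 CPM in SS cDC2 (-3.34 ± 0.30 SE, edgeR adjusted p = 6.20e-09). Axl averaged 132 ± 35.7 CPM in SS cDC1 and 673 ± 218 CPM in SS cDC2 (-2.27 ± 0.33 SE, edgeR adjusted p = 4.50e-05). Timp2 averaged 25.1 ± 8.39 CPM in SS cDC1 and 263 ± 69.5 CPM in SS cDC2 (-2.28 ± 0.30 SE, edgeR adjusted p = 1.15e-05). Dusp2 averaged 264 ± 43.1 CPM in SS cDC1 and 305 ± 53.7 CPM in SS cDC2 (-1.39 ± 0.22 SE, edgeR adjusted p = 7.77e-05). In the other direction, Pla2g7, a phospholipase of platelet-activating factor, averaged 27.9 ± 4.7 CPM in MI cDC1 and 228 ± 52.3 CPM in MI cDC2, against 8.19 ± 1.65 CPM in SS cDC1 and 565 ± 81.8 CPM in SS cDC2 (3.08 ± 0.23 SE, edgeR adjusted p = 7.52e-11). Irf7 averaged 260.1 ± 51.2 CPM in SS cDC1 and 184 ± 52.9 CPM in SS cDC2 (1.40 ± 0.27 SE, edgeR adjusted p = 0.00152). Zbp1 averaged 35.1 ± 6.16 CPM in SS cDC1 and 51.2 ± 13.3 CPM in SS cDC2 (1.69 ± 0.31 SE, edgeR adjusted p = 7.14e-04). Ccl7 averaged 4.72 ± 0.575 CPM in SS cDC1 and 14.1 ± 4.92 CPM in SS cDC2 (3.32 ± 0.46 SE, edgeR adjusted p = 1.80e-05). Of the 34 genes of the type I interferon list, 5 had a higher and 0 a lower effect in MI. Over all tested genes these shares were 1.60% and 2.61%. Trim30a and Ifitm3 of the interferon list each lost the call in 7 of 15 fits that left out 1 library. For Ifitm3, which was lower in MI cDC1 than in MI cDC2, the higher effect means a smaller gap in MI. Pparg, a lipid-sensing factor, averaged 15.6 ± 2.85 CPM in MI cDC1 and 21.4 ± 5.72 CPM in MI cDC2, against 6.95 ± 1.81 CPM in SS cDC1 and 58.4 ± 22.4 CPM in SS cDC2 (2.62 ± 0.33 SE, edgeR adjusted p = 7.91e-06). Nfil3 averaged 79.6 ± 25 CPM in SS cDC1 and 300.2 ± 53.3 CPM in SS cDC2 (2.02 ± 0.38 SE, edgeR adjusted p = 0.00137). Neither was called between the subsets in MI.

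**Figure D5:**
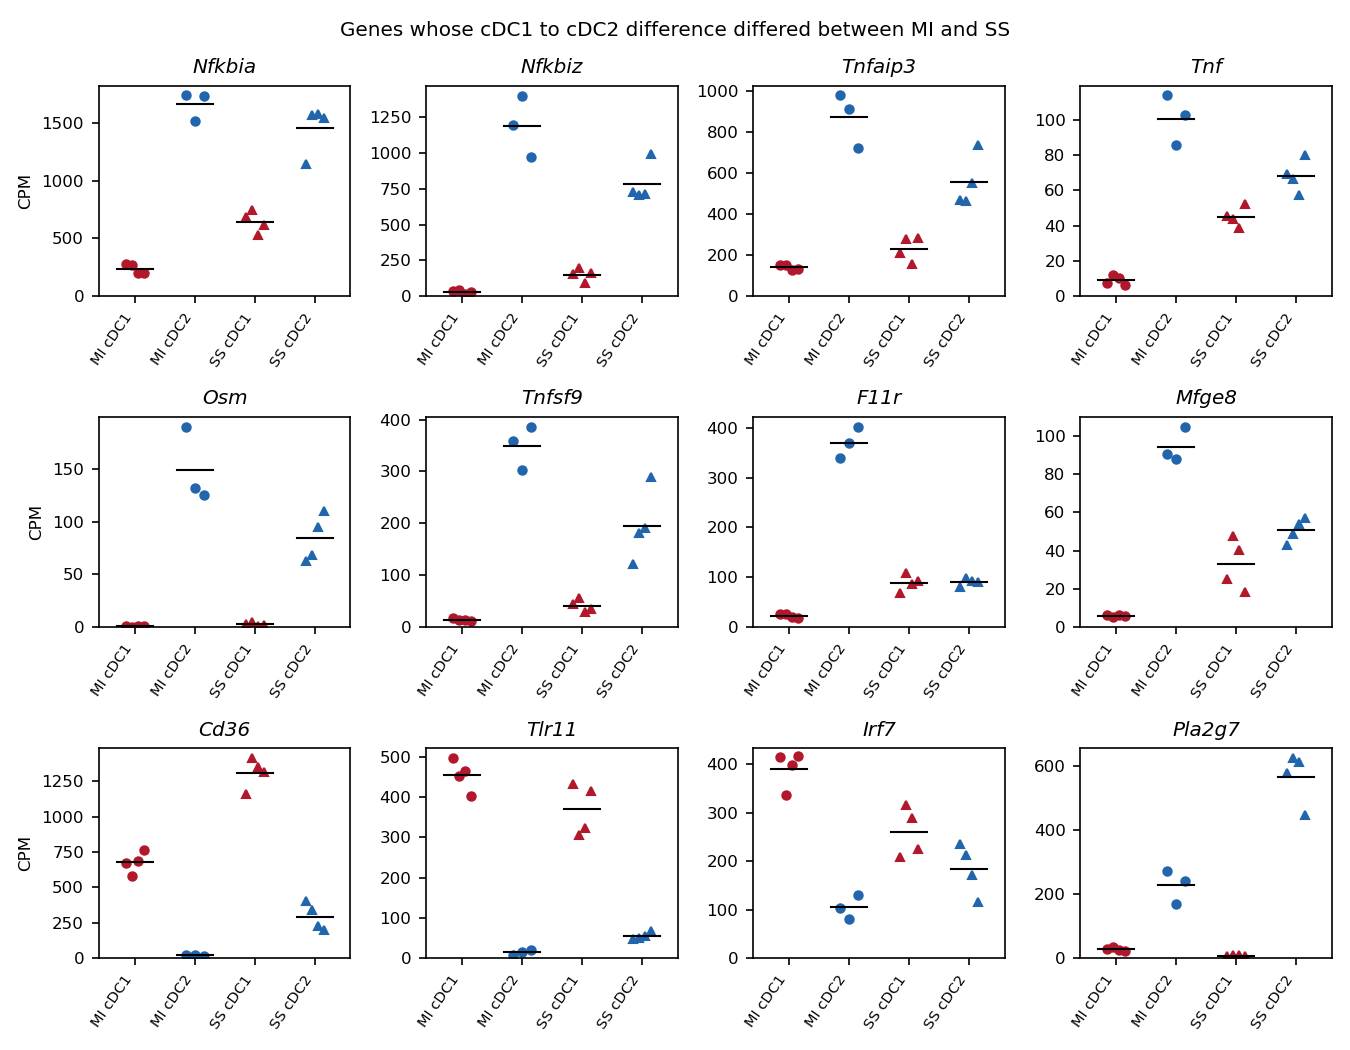
CPM (vertical axes, from 0) of 12 genes called for the difference between the MI and SS effects, in MI cDC1, MI cDC2, SS cDC1 and SS cDC2; each point is 1 library (circles MI, triangles SS; red cDC1, blue cDC2) and each line is the group mean. Nfkbia averages 239 CPM in MI cDC1 and 646 CPM in SS cDC1, while F11r averages 370 CPM in MI cDC2 and 90.4 CPM in SS cDC2.

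The 6 largest differences of effects in each direction, among genes with at least 10 CPM in any of the 4 groups, included several at or near 0 in a group. Among the lower ones, Bcam, a laminin receptor, was at 0 in all MI cDC1 libraries and averaged 4.18 ± 0.468 CPM in MI cDC2, against 29.5 ± 23.6 CPM in SS cDC1 and 15 ± 5.12 CPM in SS cDC2 (edgeR adjusted p of the difference of effects = 1.72e-05). Gab1, a docking adaptor of growth factor receptors, was also at 0 in MI cDC1, with 10.3 ± 1.71 CPM in MI cDC2, against 2.51 ± 2.26 CPM in SS cDC1 and 9.39 ± 3.89 CPM in SS cDC2 (edgeR adjusted p of the difference of effects = 3.35e-05). A4galt, a glycosyltransferase, averaged 0.0768 ± 0.154 CPM in MI cDC1 and 12.6 ± 2.41 CPM in MI cDC2, against 1.91 ± 2.58 CPM in SS cDC1 and 1.96 ± 1.2 CPM in SS cDC2 (edgeR adjusted p of the difference of effects = 2.88e-04). Without SS cDC1 replicate 2, the differences of effects of Bcam and Gab1 were -8.78 and -7.04 (edgeR adjusted p = 1.82e-05 for each). Jam2, Ptprb and Abcb4 completed the lower ones. The mural and endothelial sums were higher in SS cDC1 than in MI cDC1 beside these genes. Ptprb lost its call in 11 of 15 fits that left out 1 library, and Abcb4 lost it without SS cDC1 replicate 3 (edgeR adjusted p = 0.324). Among the higher ones, Ak8, an adenylate kinase, averaged 3.45 ± 1.04 CPM in MI cDC1 and 4.78 ± 0.821 CPM in MI cDC2, against 1.18 ± 0.65 CPM in SS cDC1 and 27.8 ± 5.51 CPM in SS cDC2 (edgeR adjusted p of the difference of effects = 0.00557). Retnla, a product of alternatively activated macrophages, averaged 0.912 ± 1.63 CPM in MI cDC1 and 169 ± 63.3 CPM in MI cDC2, against 0.743 ± 0.713 CPM in SS cDC1 and 4599 ± 1300.1 CPM in SS cDC2 (edgeR adjusted p of the difference of effects = 0.0133). Without MI cDC1 replicate 3, which held most of its reads in that group, the adjusted p was 0.791. The monocyte and macrophage sum was lower in MI cDC2 than in SS cDC2 beside it. Mag lost its call without MI cDC1 replicate 1 (edgeR adjusted p = 1), Nrg2 in 3 of 15 and Fcrls in 10 of 15 such fits. Over all named genes called for the difference of effects, 55 of 81 kept the call in every one of the 15 fits.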

How the data were processed

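RNA of sorted cardiac cells was amplified from 4 ng of total RNA with SMART-Seq v4, which does not mark the strand, and read as single reads of 75 bases, per the labels' protocols. The deposited files hold raw read counts per gene, 1 file a library; the submitters' processing notes name FastQC 0.11.4, Trimmomatic 0.35, TopHat2 2.1.0, SAMtools 0.1.18 and mm10. The sources used here do not give the counting tool, its annotation or its strand setting, so reads of overlapping, antisense or near-identical genes cannot be told apart. The 5 summary entries of each file were left out; the reads in no feature were 6.419% to 14.92% of the counted reads in the cDC libraries.

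All 31 libraries (9148624 to 16531349 reads in genes) entered 1 model that gives each of the 8 groups its own mean: edgeR 4.0.16 in R 4.3.3, TMM scaling, filterByExpr with a minimum count of 10, robust quasi-likelihood test, Benjamini-Hochberg adjustment over 13039 of 24421 genes, threshold 0.05. Standard errors are the absolute log2 fold change divided by the square root of F. CPM were computed with the TMM library sizes. A group at 0 was set to 3 counts for a lower bound of a fold. DESeq2 1.42.0 was an alternative. Marker sums were compared by exact permutation tests.

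Named genes are the 12 largest called differences in each direction (at least 10 CPM in the higher group, groups not overlapping), the up to 4 called members of each list and direction with the smallest adjusted p, any cDC1 or cDC2 marker or transcription factor, and the 6 largest differences of effects in each direction; a few of them are not reported here. The groups, members and gene lists were chosen with earlier results of these data known. Nothing in the labels says that the libraries are separate hearts.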

Additional observations from a re-analysis of the deposited data

Results flagged for a closer look

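Within groups of 4 libraries, 1 library stood far from the other 3 by Dixon's ratio for 20 of the 249 groups examined among the genes with printed values, and chance flags about 1 in 20 groups. In MI cDC1 replicate 1, Il12b was at 121.3 CPM (others 21.1 to 30.3), Samsn1 at 51.4 (21.3 to 24.1), Kynu at 14.1 (8.29 to 8.87) and Clec10a at 0.617 (0 to 0.102). In MI cDC1 replicate 2, Klf2 was at 1038 CPM (749 to 789.6) and Cd33 at 0.197 (others at 0). In MI cDC1 replicate 3, Acvrl1 was at 219 CPM (182 to 188), Tap2 at 580.4 (509.6 to 517), Myc at 63.3 (43.1 to 45.7), March1 at 200.3 (214 to 216), Retnla at 3.34 (0 to 0.308), Mrc1 at 1.21 (0 to 0.103) and Alox5 at 0.186 (others at 0). In MI cDC1 replicate 4, Irf8 was at 3449 CPM (4034 to 4077), Gpr33 at 17.0 (10.8 in each of the others) and A4galt at 0.307 (others at 0). In SS libraries, Gab1 was at 5.88 CPM in SS cDC1 replicate 2 (1.14 to 1.85), Ccl7 at 21.4 in SS cDC2 replicate 2 (11.1 to 12.7), Nfkbia at 1144 in SS cDC2 replicate 1 (1539 to 1581) and Nfkbiz at 992 in SS cDC2 replicate 4 (708 to 727).

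Of the genes with printed values, 58 had a difference between the cDC1 to cDC2 effects in MI and in SS at an edgeR adjusted p under 0.05; the values are log2 fold changes, MI minus SS. Among genes of antigen uptake and sensing, they were 4.70 for Clec9a, 2.89 for Cd36, 2.23 for Tlr11, 3.43 for Tlr12, -1.19 for Tlr2, -2.77 for Cd209a, -2.95 for Clec10a, -5.01 for Cd33, -2.27 for Axl, -3.34 for Mfge8, -0.69 for Ifi30 and 0.68 for Naaa. Among factors, 1.18 for Batf3, 1.01 for Id2, 1.04 for Ahr, 2.20 for Cebpb, 2.62 for Pparg, 2.02 for Nfil3, -2.01 for Egr1 and -6.68 for Creb5. Among cytokine, chemokine and NF-kB genes, -1.62 for Nfkbia, -2.89 for Nfkbiz, -2.32 for Nfkbid, -1.35 for Tnfaip3, -2.87 for Tnf, -2.38 for Osm, -2.32 for Tnfsf9, -0.86 for Cd86, 3.32 for Ccl7, 1.47 for Il18, -3.65 for Il1rl1, -1.39 for Il2rg, -0.96 for Tgfbr1 and 3.67 for Ptger2. Among interferon genes, 1.40 for Irf7, 1.69 for Zbp1, 1.45 for Oasl1, 0.74 for Trim30a and 0.90 for Ifitm3. Among the others, -3.99 for F11r, 3.08 for Pla2g7, -3.47 for Alox5, -2.31 for Pltp, -2.28 for Timp2, -2.01 for Tgm2, 1.53 for Cd81, -1.19 for Cadm1, 1.45 for Lyz2, -1.27 for Ms4a6d, -1.39 for Dusp2, -1.65 for Ccnd2, 4.07 for Ak8, 5.27 for Retnla, -9.47 for Bcam, -7.88 for Gab1, -7.22 for A4galt, -6.20 for Sdc1 and -5.06 for Gcnt1. Values of genes at or near 0 in MI cDC1 or MI cDC2 depend on the prior count and bound nothing.

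Of the 15 fits that left out 1 library, 12 lost the call of Ifi30, 9 that of Cd86, 7 that of Trim30a, 7 that of Ifitm3 and 4 that of Alox5. Ahr, Tgfbr1 and Egr1 lost theirs without MI cDC2 replicate 1 (edgeR adjusted p = 0.0898, 0.0502 and 0.0552), Id2 without MI cDC2 replicate 3 (0.0546), Creb5 without SS cDC1 replicate 2 (0.116), Gcnt1 without SS cDC1 replicate 3 (0.370) and Retnla without MI cDC1 replicate 3 (0.791). Other differences of effects moved by more than 1.5 times on the linear scale. Without MI cDC2 replicate 3 that of Clec9a was 5.66 and that of Tlr12 4.30. Without MI cDC1 replicate 1 that of Clec10a was -4.40, and without MI cDC1 replicate 2 those of Il1rl1 and Cd33 were -4.57 and -7.42. Without MI cDC1 replicate 3 those of Alox5 and Retnla were -5.86 and 2.17. That of A4galt was -10.12 without MI cDC1 replicate 4 and -5.60 without SS cDC1 replicate 1. Without SS cDC1 replicate 2 those of Bcam, Gab1 and Creb5 were -8.78, -7.04 and -5.03, and without SS cDC1 replicate 3 that of Gcnt1 was -3.73.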

How the results depend on the processing

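DESeq2 size factors, upper-quartile scaling, no filter on low counts, a minimum count of 50, a fit of the compared libraries alone, a replicate block, DESeq2's own test and leaving out each library were tried. The counts for MI cDC1 against MI cDC2 ranged from 1273 to 1718 higher and from 1928 to 2243 lower, within 1.5 times the reported 1378 and 2116. Leaving out 1 library at a time gave 1065 to 1295 higher and 1818 to 1957 lower in MI, 1287 to 1432 higher and 1907 to 2098 lower in SS, and 142 to 225 higher and 237 to 345 lower for the difference of effects. With SS replicates 1 and 4 only, an alternative chosen after seeing the data, 963 genes were higher in SS cDC1, against 1531 with all. The difference of effects was then called higher for 159 and lower for 240 genes, against 209 and 340 with all. With SS replicates 2 and 3 only, these numbers were 229 and 347. Named genes that lost this call with SS replicates 1 and 4 only included Cadm1, Naaa, Il18 and Il2rg (edgeR adjusted p = 0.0907, 0.13, 0.0694 and 0.082). So did Tgm2, Creb5 and Abcb4, with differences of -1.40, -1.50 and -2.52. Among named genes, Tie1 and Ptprb had a log2 fold change of 0 without MI cDC2 replicate 3 and lost their calls. Over the fits that left out 1 library, their log2 fold changes ran from -7.417 to 0 and from -6.708 to 0. Tie1 had 0 reads in MI cDC1. The differences of both genes thus rested on MI cDC2 replicate 3. Why that library differed from the others was not tested. DESeq2 left the adjusted p of 255 genes undetermined. Same-numbered MI libraries deviated together only weakly (r = 0.0865, 0.0400 and 0.0491), although each correlated best with its own number. The SS pairs had r = 0.0589, 0.154, 0.107 and 0.135, each likewise highest with its own number, and 1 was below 0.1. With the replicate number as a block, 1457 genes were higher and 2177 lower in MI, 1738 and 2270 in SS, and 283 and 447 for the difference of effects. Genes at 0 reads in a group are below the limit of 3 counts and not shown to be absent.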
